A study of Mus musculus with 23 samples.

Results

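Cytosolic ribosomal protein genes were followed in scrapings of the small intestine from 23 adult male C57BL/6J mice. Members were chosen by name: every spot called Rpl or Rps plus a number and an optional letter, together with Rplp0, Rplp1, Rplp2 and Rpsa, without kinases of the Rps6k family and without names ending in -ps. This gave 195 spots, 186 probes and 81 genes out of 59305 spots and 55681 probes. Of the 81 genes, 78 had a probe above background in enough mice to be tested, among 21477 genes tested in all, and each of those 78 was above background on all 23 arrays. They comprised 46 genes of the large (60S) subunit and 32 of the small (40S) subunit. The remaining 3, Rpl10l, Rpl39l and Rpl3l, are homologues of Rpl10, Rpl39 and Rpl3. Rpl39l and Rpl3l were above background on 0 of 23 arrays, and the brighter of both Rpl10l probes on 5.

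After 3 weeks on a normal-fat diet, the HF-Q mice (n = 11) ate a high-fat diet with 0.33% quercetin by weight for 12 weeks, and the HF mice (n = 12) the same high-fat diet without it. Quercetin is a plant flavonol. No group stayed on the normal-fat diet, so all values describe mice fed high fat, and all were fasted for 2 to 4 hours before they were killed. Each array carried the Cy5-labelled RNA of 1 mouse against a Cy3-labelled pool of all samples, so every value is a log2 ratio of a mouse to that pool and a shift shared by all mice would not be seen.

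Each ribosome carries 1 copy of nearly every ribosomal protein, and the large and small subunits are assembled in the nucleolus with the help of many biogenesis factors. Mammalian ribosomal protein mRNAs begin with a run of pyrimidines, the 5′ terminal oligopyrimidine or TOP motif, through which mTORC1 controls their translation. In the intestine, dividing crypt cells need many new ribosomes, whereas enterocytes on the villus have left the cell cycle. Because whole scrapings were measured, fewer cells of a type and less RNA per cell cannot be told apart.

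Windows of 30 bases around the annotated start show how the annotated sequence differs among genes at both ends of the co-variation described below. They are RefSeq sequence of build GRCm38.p6, 15 bases before and 15 from the start on, read 5′ to 3′ on the gene's strand, with the longest run of C or T in capitals. The first 4 are the members with a promoter in the table that followed the other members most closely, and the last 4 those that did so least.
Rpl35, chr2:39005117-39005146, minus strand: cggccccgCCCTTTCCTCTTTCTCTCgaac
Rplp2, chr7:141447636-141447665, plus strand: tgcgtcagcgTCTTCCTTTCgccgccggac
Rpl26, chr11:68901551-68901580, plus strand: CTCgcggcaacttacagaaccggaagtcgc
Rps13, chr7:116334176-116334205, minus strand: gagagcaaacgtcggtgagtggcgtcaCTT
Rpl38, chr11:114668565-114668594, plus strand: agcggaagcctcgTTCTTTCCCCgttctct
Rpl15, chr14:18270972-18271001, minus strand: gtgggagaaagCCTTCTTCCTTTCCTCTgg
Rpl7a, chr2:26910792-26910821, plus strand: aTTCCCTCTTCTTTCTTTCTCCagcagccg
Rps27l, chr9:66946071-66946100, plus strand, 1 of 2 annotated starts: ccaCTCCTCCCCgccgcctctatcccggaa

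The longest run had 18 bases in Rpl35, 10 in Rplp2, and 3 in Rpl26 and in Rps13. It had 10 bases in Rpl38, 17 in Rpl15, 21 in Rpl7a and 9 in Rps27l, so a long run at the annotated start was found at both ends of the order. In Rps27l the run ended 4 bases before the start. Of the 78 tested members, 58 had a promoter in the table. A C at the first base followed by at least 4 letters that were each C or T was found in 13 of 58 members (22.4%) and in 3.01% of 27025 genes with a promoter. With the search widened to 10 bases either side of the start, on the gene's strand, the shares were 53.4% of the members and 28.8% of all genes. The letters CTTTCC within 10 bases of the start, gene strand only, were found in 13.8% of the members and 0.995% of all genes, and CTTTTC in 5.17% and 0.755%. CCGGAAG, a sequence bound by ETS-family factors, was found on either strand within the 300 bases in 43.1% of the members, Rps27l among them, and in 9.93% of all genes. AAGATGGC, the core of the YY1 motif, was found on either strand in 8.62% of the members and 3.19% of all genes. The pyrimidine motifs overlap one another, and a match in a window describes its letters only. The starts come from the annotation and were not measured here. A short or absent run therefore does not show that an mRNA lacks a TOP motif.

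Quercetin came with no detected change in the mRNA of any ribosomal protein gene. In the limma fit over all 21477 genes, 0 of 78 members and 0 genes in all (0%) passed an adjusted p of 0.05, and the smallest adjusted p was 0.951. At an unadjusted p under 0.05 there were still 0 of 78 members, beside 969 of all genes (4.51%), of which 452 were higher (2.1%) and 517 lower (2.41%) in HF-Q. The log2 fold change of HF-Q over HF lay between -0.09 (Rps27a) and 0.11 (Rps19), with a median of 0.0097 over the members and -0.0038 over all genes. In this loess-normalized fit, every 95% confidence interval lay within about a 1.25-fold change in either direction. That bound holds for this scaling only. With arrays centred on their median, the log2 fold change of Rpl15 moved from 0.11 to 0.21 and that of Rpl23a from 0.09 to 0.20. No member, and 0 of all genes (0%), had HF-Q and HF values that did not overlap.

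**Figure D1:**
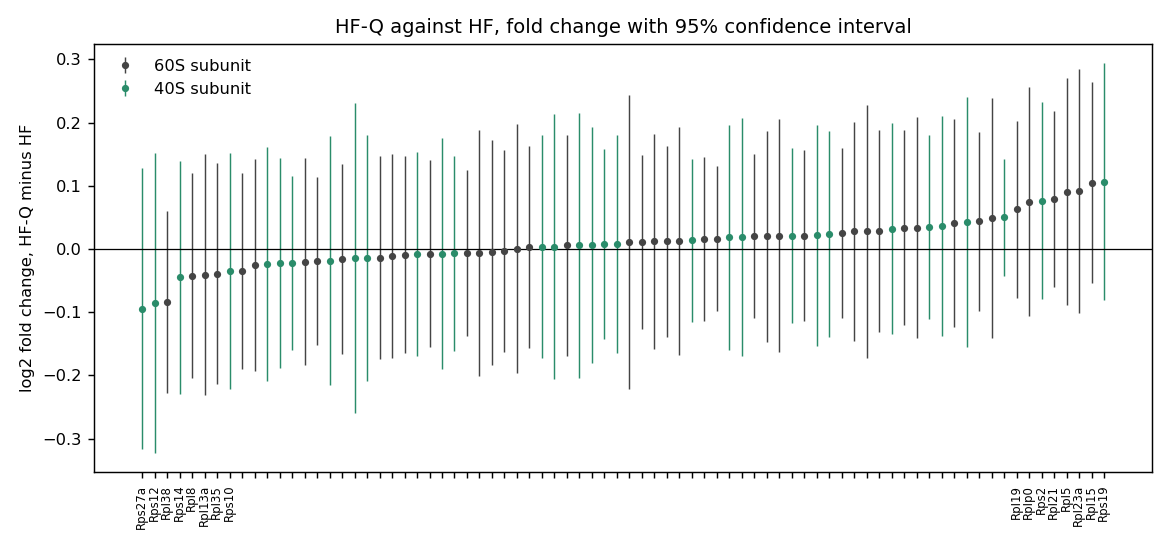
Log2 fold change of HF-Q over HF (vertical axis) for the 78 ribosomal protein genes, ordered from lowest to highest, with names under the 8 lowest and 8 highest, points in grey for the 60S and green for the 40S subunit and bars for 95% confidence intervals. All 78 intervals cover 0, and the points run from -0.09 for Rps27a to 0.11 for Rps19.

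Among the members, 48 (61.5%) lay above 0 and 30 below, beside 48.0% of all genes above 0. That split depended on the scaling: it was 78 above 0 when arrays were centred on their median in place of the intensity-dependent loess, where the median of all genes also moved to 0.05, and 77 above 0 in the authors' deposited table of log2 values. It depended on single mice as well, with 11 of 78 above 0 without HF mouse 1 and 18 without HF-Q mouse 7. By subunit, 29 of 46 members of the 60S subunit lay above 0 with a median of 0.01, and 19 of 32 of the 40S subunit with a median of 0.0061.

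The highest point belonged to Rps19, a 40S protein and the gene most often mutated in Diamond-Blackfan anaemia. Its log2 ratios had a lowest, median and highest value of -0.65, -0.10 and 0.24 in HF-Q mice, against -0.79, -0.17 and 0.06 in HF mice. The diets overlapped over most of their range, with 9 of 11 HF-Q mice higher than the median HF mouse, and the difference was 0.11 ± 0.09 (SE; adjusted p = 0.951). Rpl15, a 60S core protein, had the smallest unadjusted p of the members, 0.185 in limma's test. It ran from -0.49 over a median of 0.02 to 0.29 in HF-Q mice, against -0.37, -0.08 and 0.15 in HF mice, a difference of 0.11 ± 0.08. Of the others high in the order, Rpl23a stood at 0.09, Rpl5 at 0.09, Rpl21 at 0.08, Rps2 at 0.08 and Rpl19 at 0.06, and for each of them the adjusted p was at least 0.951. The dimmer probes of Rpl21 had 0.14 and -0.05.

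At the low end, Rps27a, made as a fusion of ubiquitin with a 40S protein, averaged -0.01 ± 0.22 in 10 HF-Q mice and 0.08 ± 0.29 in 10 HF mice (SD), since spots marked as outliers were left out of the fit. The difference of -0.09 ± 0.11 (SE) was smaller than either SD. Fau, which makes a ubiquitin-like protein fused to a 40S protein, lies outside the name rule and differed by -0.07. Rps12 (-0.08, from 9 HF-Q and 11 HF mice) and Rpl38 (-0.08), a 60S protein whose loss in mice alters the translation of Hox mRNAs, came next. Rpl38 ran from 0.10 over 0.31 to 0.64 in HF-Q mice, against -0.03, 0.42 and 0.71 in HF mice, so that the HF range enclosed the HF-Q range. Rps14, Rpl8, Rpl13a and Rpl35 followed with -0.04 each. Other probes had the opposite sign for Rps12 (0.06), Rpl13a (0.08 and 0.07) and Rpl8 (0.0096). Those of Rps27a (-0.02) and Rpl38 (-0.08) had the same sign.

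The probes behind 4 of these genes show what was hybridised. Each is a 60-base oligonucleotide of the array, given 5′ to 3′ with its mm9 position from the scanner files. Rps19 and Rps27a mark the ends of the fold changes, Rpl34 belongs to the most alike pair of members, and Rpl15 had the smallest p.
Rps19, chr7:25670166-25670225, plus strand: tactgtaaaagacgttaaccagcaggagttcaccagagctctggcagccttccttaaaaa
Rps27a, chr11:29445914-29445973, minus strand: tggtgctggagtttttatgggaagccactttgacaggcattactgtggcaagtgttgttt
Rpl34, chr3:130429830-130431677, minus strand, a span that is longer than the probe: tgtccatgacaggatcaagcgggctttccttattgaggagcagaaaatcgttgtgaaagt
Rpl15, chr14:19101657-19101716, minus strand: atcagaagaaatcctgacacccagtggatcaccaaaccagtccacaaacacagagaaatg

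The stalk of the 60S subunit recruits elongation factors and is built from Rplp0, Rplp1 and Rplp2. Rplp0 had a lowest, median and highest value of -0.06, 0.38 and 0.82 in HF-Q mice, against -0.31, 0.35 and 0.51 in HF mice, a difference of 0.08 ± 0.09. Rplp1 and Rplp2, which bind to it as dimers, differed by -0.0054 ± 0.09 and -0.0035 ± 0.08. The lowest values of all 3 came from HF mouse 1.

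Rpl5 and Rpl11 bind and inhibit Mdm2, the ubiquitin ligase of p53, when ribosome assembly is disturbed. Rpl5 averaged -0.0022 ± 0.23 in HF-Q mice and -0.09 ± 0.20 in HF mice (SD), and Rpl11 0.12 ± 0.21 (n = 10) and 0.10 ± 0.22. Over the 10 members on the list of Mdm2-binding proteins, 6 lay above 0 and 4 below, with a median of 0.02. Of 17 members in which mutations cause Diamond-Blackfan anaemia in humans, 10 lay above 0 and 7 below, with a median of 0.0082. In both groups 0 members passed an unadjusted p of 0.05 in limma's test, beside 4.51% of all genes.

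The mean over the 78 members was 0.08 ± 0.18 in HF-Q mice and 0.07 ± 0.19 in HF mice (SD). The difference of 0.01 had a 95% interval from -0.14 to 0.17. It was 0.01 with slide as a block, -0.03 without HF mouse 1, 0.05 without HF-Q mouse 2 and -0.02 without HF-Q mouse 7, so its sign rested on single mice. Within the 3 slides, which held 4, 3 and 4 HF-Q mice and 4 HF mice each, it was 0.02, 0.11 and -0.08. The spread between mice was far wider than the gap between diets. HF-Q mice ran from -0.26 over a median of 0.11 to 0.42, and HF mice from -0.40 over 0.12 to 0.23. In HF-Q mouse 7 all members lay above 0, from 0.02 to 1.21, the highest being Rps14. In HF-Q mouse 2 every one of the 78 members lay below its median over all mice, and in HF mouse 1 76 did. Member means below 0 fell only on low replicate numbers: HF mice 1, 3 and 4 (-0.40, -0.13 and -0.06) and HF-Q mice 1, 2 and 3 (-0.11, -0.26 and -0.03). HF mouse 2 (0.07), HF-Q mouse 4 (0.11) and every mouse with a higher number were above 0. What the numbers stand for is not stated in the labels, and their part in the member mean was not tested.

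**Figure D2:**
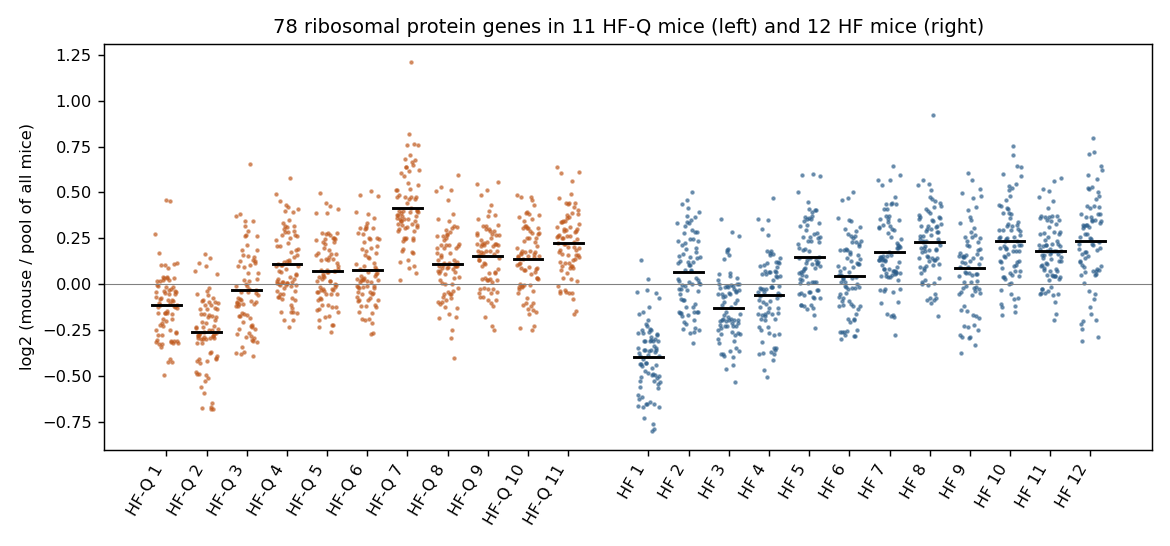
Log2 ratio to the pool (vertical axis) of the 78 ribosomal protein genes in each of 11 HF-Q mice (orange, left) and 12 HF mice (blue, right), with 1 point for a gene and a black line at the mean. The genes of a mouse shift together, from a mean of -0.40 in HF mouse 1 to 0.42 in HF-Q mouse 7, and both diets span most of that range.

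The ribosomal protein mRNAs varied together from mouse to mouse. Over the 3003 pairs of members, the median Pearson correlation across the 23 mice was 0.85, and 68.1% of pairs were above 0.8. The first principal component of the members held 80.7% of their scaled variance. The median was 0.86 within the HF-Q mice, 0.87 within the HF mice, and 0.77, 0.92 and 0.87 within the slides. It was 0.84 among the 60S and 0.86 among the 40S members. These correlations describe 23 arrays that share a reference pool and its normalization, and no p is given for them.

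HF mouse 1, HF-Q mouse 2 and HF-Q mouse 7 stood apart in the member mean, and without these 3 mice the median was 0.69. It was 0.79 without HF mouse 1 alone. Taken from the Cy5 channel alone, without the ratio to the pool, it was 0.70. Repeated spots of 1 member give the noise between spots of an array. They belong to a dimmer Rpl23 probe than the one used (mean log2 Cy5 signal 12.1 against 17.9). Its 10 identical spots had an SD of 0.03 to 0.08 within an array, while the SD of their mean over arrays was 0.15. Noise that all spots of an array share, as from labelling or normalization, is part of the latter and not of the former.

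Other gene groups were less alike by the same measure. The median pairwise correlation was 0.61 over 39 ribosome biogenesis genes, 0.47 over 24 other mRNAs of the TOP class, 0.40 over 78 mitochondrial ribosomal protein genes and 0.26 over 31 proteasome subunits. It was -0.04 over 866 non-members as bright as the members, meaning above the 10th percentile of the members' signal, and -0.0060 over all genes. The equally bright non-members went both ways: 256 of the 866 had a correlation above 0.8 with the member mean and 505 one below 0, while over all 21399 non-members 1043 were above 0.8 and 11308 below 0.

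**Figure D3:**
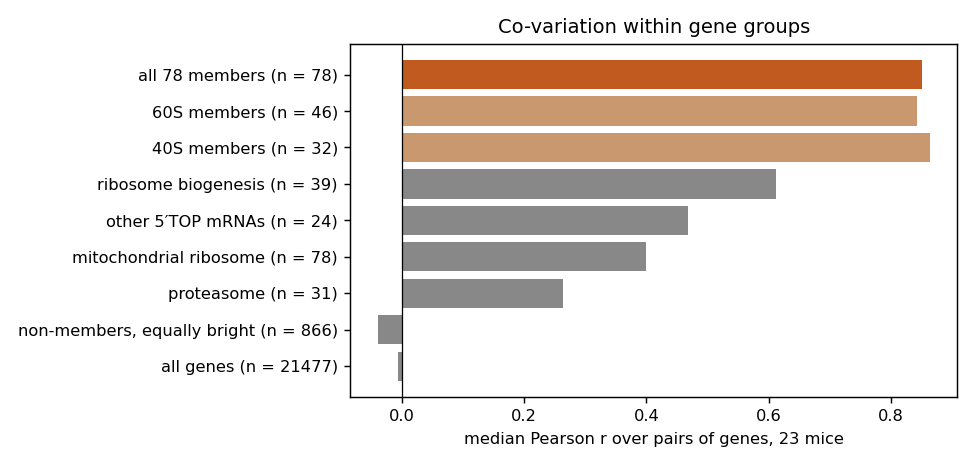
Median Pearson correlation over all pairs of genes in a group across 23 mice (horizontal axis), with the number of genes after each name and the members and their subunits in orange. The members stand at 0.85, ribosome biogenesis genes at 0.61, and non-members as bright as the members at -0.04.

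Each member was also set against the mean of the other members. Of the 78, 51 had a correlation of at least 0.9, 21 lay between 0.8 and 0.9, 5 between 0.6 and 0.8, and 1 below. The highest was Rpl35 (0.98), a 60S protein at the exit of the peptide tunnel, followed by Rpl3 (0.97), Rplp2 (0.97), Rpl26 (0.96) and Rps13 (0.96). The most alike pair was Rpl34 with Rps10 (0.978), a 60S and a 40S protein.

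Rps27l was the exception. It is a close homologue of Rps27, is induced by p53, and its product binds Mdm2. Its correlation with the other members was -0.10, and its SD over mice of 0.10 was the lowest of all 78. It had values of -0.24, -0.10 and 0.11 (lowest, median, highest) in HF-Q mice, against -0.29, -0.09 and -0.03 in HF mice, a difference of 0.05 ± 0.04 (adjusted p = 0.951). HF mouse 1, the lowest for the members, was near the top of the HF mice for Rps27l, at -0.05. Its lowest pair was with Rpl8 (-0.49), and without Rps27l all 2926 pairs of members were above 0. It was measured by a single bright probe, above background on all 23 arrays. The genes nearest to it were Timm17a and Timm8b (both 0.83), which serve protein import into mitochondria, then Nipal2 (0.82), Ssu72 (0.82) and Arl1 (0.81). Of p53 targets, Cdkn1a had a correlation of 0.12 with Rps27l, Ccng1 0.30, Bax 0.29, Phlda3 0.14, Sesn2 0.07, Zmat3 0.11, Trp53inp1 -0.23 and Mdm2 -0.44.

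The 5 members between 0.6 and 0.8 were all of the 60S subunit: Rpl7a (0.68), Rpl15 (0.69), Rpl21 (0.74), Rpl38 (0.74) and Rpl19 (0.77). For Rpl7a the correlation was 0.83 in HF-Q mice and 0.55 in HF mice, and for Rpl15 0.87 and 0.55. The difference between the diets in these correlations was not tested. Rpl7a also had the next lowest SD over mice, 0.13. The widest spreads were in Rpsa (0.30), the laminin receptor precursor of the 40S subunit, Rpl12 (0.28), Rps12 (0.27), Rps27a (0.25) and Rps24 (0.25).

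**Figure D4:**
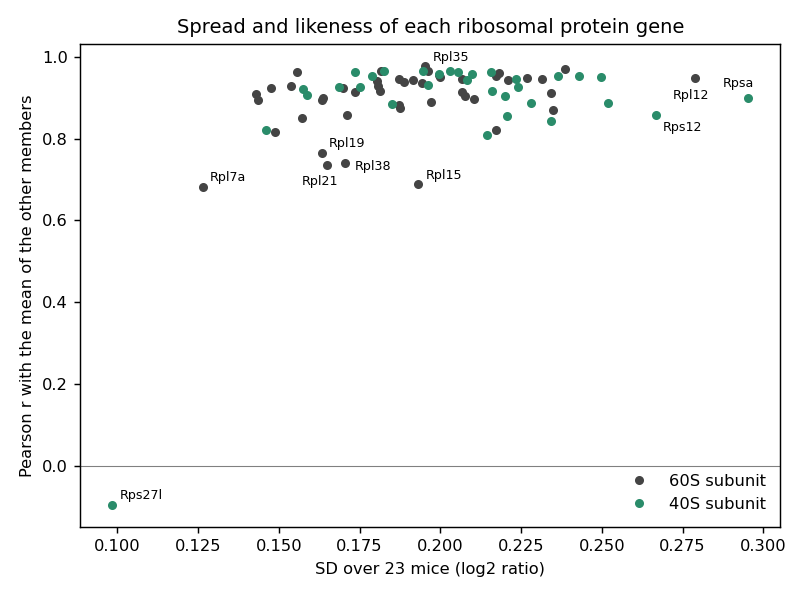
SD over 23 mice of the log2 ratio (horizontal axis) and Pearson correlation with the mean of the other members (vertical axis) for the 78 genes, grey for the 60S and green for the 40S subunit. Rps27l lies alone at the lower left with an SD of 0.10 and a correlation of -0.10, while 51 genes lie at 0.9 or more.

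Different probes of a gene mostly followed each other. Of 186 probes, 179 passed the background filter, and for the 57 genes with at least 2 of them the median correlation between probes of a gene was 0.93. For 21 genes the probes differed in the sign of the fold change. Only 5 passing probes, of Rpl6, Rpl7a, Rps25, Rps27l and Rps3, had a correlation under 0.5 with the member mean. For Rpl6, Rps25 and Rps3 another probe was used, and those had 0.95, 0.91 and 0.93. The 4 probes of Rpl7a had 0.68, 0.65, 0.63 and 0.26 with the member mean, while correlating with each other at 0.78 or more. The probes at 0.65 and at 0.26 are shown because they come from separate stretches of the mRNA, and capitals mark the TAA with which the first of them ends.
Rpl7a, chr2:26768730-26768789, plus strand, correlation 0.65: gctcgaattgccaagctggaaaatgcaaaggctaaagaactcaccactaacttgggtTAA
Rpl7a, chr2:26766632-26766986, plus strand, correlation 0.26: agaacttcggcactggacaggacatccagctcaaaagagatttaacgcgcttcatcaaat

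For 11 passing probes of 5 genes, the scanner files place the probe on another chromosome than the gene. These included all 4 probes of Rps27 (placed on chromosome 9, the gene on 3) and all 3 of Rps29 (placed on chromosome 2, the gene on 12). The probes of Rps2 were both placed on chromosome 17 but at separate loci of mm9, the one used at chr17:42864841-42864900 and the other, with a fold change of 0.17, at chr17:24857583-24857642. The values under these names may therefore include RNA of near-identical copies, and the same holds in principle for every member with processed copies.

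Genes outside the rule showed which other mRNAs followed the members. Among all non-members, the 8 highest correlations with the member mean, from 0.980 to 0.986, belonged to 7 probes without a RefSeq symbol and to the pseudogene Gm4997. Among the 100 highest, 78 had no RefSeq symbol, 31 shared a run of 20 bases with a probe of a member, and 6 were named as protein-coding. The protein-coding ones led with Rpl32l (0.971), a RefSeq name for a probe that the scanner files call Gm6251, then Csrp2 (0.971), Ift27 (0.958), Eef1b2 (0.956), a subunit of the elongation factor complex, and Nme4 (0.956). At the other end were Btnl2 (-0.93) and Btnl1 (-0.93), butyrophilin-like proteins of the gut epithelium, and Mttp (-0.92), which loads lipid onto apolipoprotein B. Homologues whose scanner-file names fell outside the rule were mixed: Rpl22l1 had 0.83, Rpl36al 0.69, Rpl7l1 0.11 and Rps4l, which the scanner files call Rps4y2, -0.37.

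The 24 other TOP mRNAs, translation factors and their partners, had a mean that followed the member mean at 0.99 (Spearman 0.98; 0.97 without the 2 mice farthest from the median, HF mouse 1 and HF-Q mouse 2). Eef1b2, Rack1 (0.94), a 40S-bound scaffold, Eef1a1 (0.94), which brings aminoacyl-tRNA to the ribosome, and Nap1l1 (0.93) were closest. Fau was at 0.02 and Eif4a2 at -0.26. In HF-Q against HF, 14 of these 24 lay above 0 and 10 below, with a median of 0.01. Eif3e (0.20 ± 0.08, adjusted p = 0.951) had the smallest unadjusted p, 0.0197 in limma's test.

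For ribosome biogenesis the mean followed the members at 0.89, led by Wdr12, Nhp2, Fbl and Nop56 between 0.90 and 0.91, and 16 of the 39 genes were above 0.8. Eif6, which keeps free 60S subunits from joining 40S subunits, ran the other way at -0.78. In HF-Q against HF, 30 of 39 (76.9%, beside 48.0% of all genes) lay above 0 and 9 below. Their median was 0.02, and none passed the adjusted threshold. Sbds, which releases Eif6 from the 60S subunit, stood at -0.12 ± 0.05, Nob1, the nuclease that finishes 18S rRNA, at 0.15 ± 0.06, and Pes1 at 0.15 ± 0.10, each with an adjusted p of 0.951. Of 24 measured genes of mTORC1 and Myc signalling, 10 lay above 0 and 14 below with a median of -0.02, 0 passed an unadjusted p of 0.05, and their mean had a correlation of 0.08 with the members. The mean of these mRNAs does not measure pathway activity. Of the 24 genes, 16 had a correlation below 0, the lowest being Rptor (-0.69). Myc, the only 1 of them above 0.8, had 0.89, with a difference of 0.16 ± 0.17 between the diets.

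Mitochondrial ribosomal protein genes, which serve a separate ribosome, had a mean with a correlation of 0.24 to the member mean. In HF-Q against HF, 66 of 78 (84.6%) lay above 0, beside 48.0% of all genes, with a median of 0.05. At an unadjusted p under 0.05, 6 of them were higher in HF-Q (beside 2.1% of all genes), and 0 passed the adjusted threshold. For proteasome subunits the correlation was 0.18, and 24 of 31 (77.4%) lay above 0 with a median of 0.04. Whether the counts of these groups hold under other scalings or without single mice was not tested.

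Markers of cell types moved with the member mean, and their part in it was not tested. The mean of 5 crypt base stem cell markers (Lgr5, Olfm4, Ascl2, Smoc2 and Axin2) had a correlation of 0.88 with it (Spearman 0.93; 0.87 without the 2 farthest mice; 0.91 in HF-Q and 0.86 in HF mice; 0.96, 0.85 and 0.95 within slides). That marker mean ran from -0.89 to 0.42 in HF-Q mice and from -0.56 to 0.50 in HF mice. The 8 enterocyte markers had -0.80 (Spearman -0.83; -0.76 without those mice; -0.91, -0.95 and -0.68 within slides), and ran from -0.21 to 0.40 in HF-Q mice and from -0.13 to 0.63 in HF mice. Within that list, Apoa4, an apolipoprotein made in fat absorption, had -0.87 and the brush border phosphatase Alpi -0.73, while the transporter Slc5a1 had 0.08. All 5 stem cell and all 8 enterocyte markers were above background on 23 of 23 arrays. With the stem cell marker mean fitted out of each member, the median pairwise correlation of the members was 0.58. With the enterocyte marker mean fitted out, it was 0.69.

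**Figure D5:**
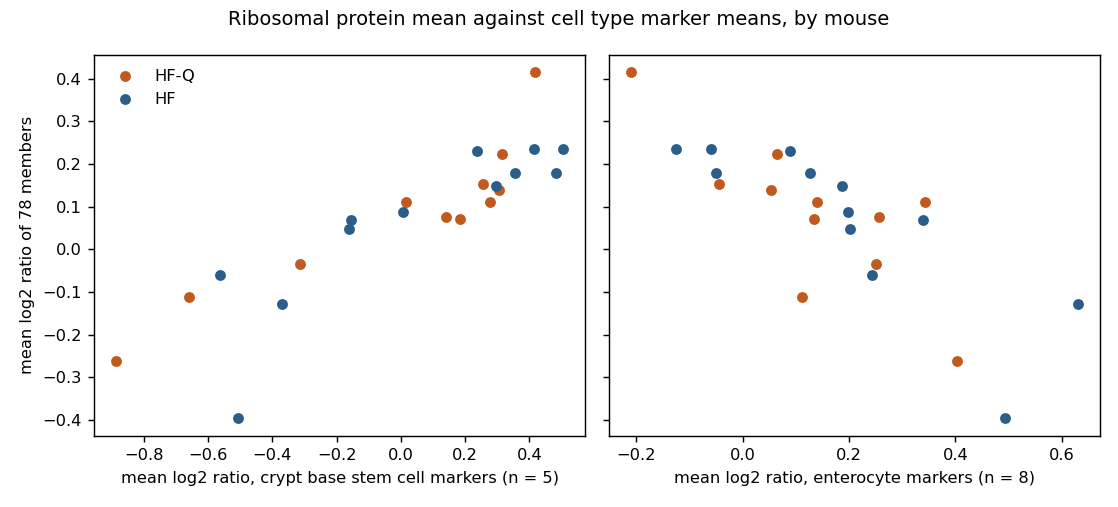
Mean log2 ratio of the 78 ribosomal protein genes (vertical axes) against that of 5 crypt base stem cell markers (left) and 8 enterocyte markers (right) in 11 HF-Q mice (orange) and 12 HF mice (blue). The member mean is higher in mice with higher stem cell markers (correlation 0.88) and lower in mice with higher enterocyte markers (-0.80), in HF-Q and in HF mice.

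Further lists moved with the member mean as well. The correlation was 0.82 for 6 genes of cycling cells, 0.815 for 5 Paneth cell genes, 0.70 for 6 smooth muscle genes, 0.67 for 5 B and plasma cell genes and 0.57 for 4 macrophage genes. It was -0.61 for 6 enteroendocrine, -0.51 for 5 tuft, -0.51 for 2 adipocyte, -0.41 for 6 T cell and -0.36 for 6 pancreatic acinar genes. Of the adipocyte genes, Adipoq was above background on 13 of 23 arrays. For 5 goblet cell genes the correlation was 0.02, and they went both ways. Spink4 had 0.76 and Agr2 0.45, against Tff3 -0.53, Fcgbp -0.41 and Clca1 -0.31. Some of the correlations of these lists were unlike by diet, a difference that was not tested: T cell genes had -0.90 in HF-Q and -0.13 in HF mice, tuft cell genes -0.88 and -0.41, and enteroendocrine genes -0.28 and -0.79. Smooth muscle markers ran from -1.61 to 0.89 in HF-Q mice and from -0.86 to 1.19 in HF mice, and acinar markers from -3.40 to 2.21 in HF-Q mice and from -3.38 to 1.80 in HF mice, both wider than the range of the member mean. Of the array measures over all mice, the number of probes above background had -0.10 (-0.40 without the 2 farthest mice), the mean Cy5 signal 0.0070, the mean Cy3 signal -0.02 and the number of outlier spots 0.21. Within slides some were further from 0. On the first slide the number of probes above background had -0.80, the mean Cy5 signal -0.62 and outlier spots -0.68, and on the second slide outlier spots had 0.67. Their part in the member mean was not tested. In all, 24 such relations were computed, and each is a description without a p.

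One protocol label names liver as the source of the RNA while all others name small intestine. Enterocyte markers were present throughout, whereas of the hepatocyte markers, Ahsg and Mup3 passed background on 0 arrays and Fgb and Hpx on 2 of 23. Alb was above background on 11 and Apoh, which was present on all 23, had a correlation of -0.14 with the members. The arrays held between 27085 and 31525 probes above background, and no 2 arrays held identical signals.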

How the data were processed

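Arrays were Agilent 8x60K mouse arrays read with Feature Extraction 10.7.3.1, per the file headers. The deposited scanner files give intensity for Cy5 (mouse) and Cy3 (pool) and a log10 ratio of Cy5 over Cy3 made by the scanner software, per the file headers. No dyes were swapped, so gene-specific dye bias stays in every ratio but cancels between diets. The authors' deposited table holds log2 values with column medians all at 9.107. Its correlation with the scanner ratios, probe by probe after centring, was 0.880 to 0.966, so its direction is that of Cy5 over Cy3. The SD of its centred values was 1.14 to 1.26 times that of the scanner log2 ratios, and the step that brought the columns to a common level is not stated in the sources used. Per the labels, 200 ng of RNA was labelled.

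Intensities were background-corrected (normexp, offset 50) and loess-normalized within arrays with limma 3.58.1 in R 4.3.3, with control spots at weight 0. Spots marked as outliers were left out, and spots of a probe were averaged. Probes whose Cy5 channel the scanner software marked well above background in 50% or more of the mice of either diet were kept, and the brightest kept probe stood for a gene. Diets were compared with lmFit and eBayes and Benjamini-Hochberg adjustment over 21477 genes, with a threshold of 0.05 and 95% intervals. The fit was tested on simulated data. Numbers of arrays limit the precision, and p-values measure the spread between mice.

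Genes were named through RefSeq accession (27064 probes), symbol (3567) or synonym (568), and otherwise by the file (24296). Members kept the scanner files' names, so Rps3a is Rps3a1 in RefSeq. Promoters were found for 61 of the 81 members. Slides come from the file headers.

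Members, lists and tests were chosen with earlier results of these data known. Named members were the 8 highest and 8 lowest fold changes, the 5 highest and 5 lowest correlations with the other members, the 5 widest and 3 narrowest spreads, members of the stalk, Mdm2, Diamond-Blackfan and ubiquitin fusion lists, and probes that disagreed. Named non-members were the 8 most correlated, up to 3 of a pathway list by p, and marker genes. Protein-coding neighbours, the neighbours of Rps27l, p53 targets, Myc and pathway genes named for their correlation were chosen after their values were seen. Alternatives were other normalizations, filters and probe rules, blocks, weights, single slides and mice left out.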

Additional observations from a re-analysis of the deposited data

How the results depend on the processing

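Under each of 21 alternatives of the fit, 0 members and 0 genes passed the adjusted threshold in limma's test, and at most 2 members had an unadjusted p under 0.05 (0 in the fit as reported, beside 969 of all genes). The median fold change of the members stayed between -0.08 and 0.11 and the difference of the member mean between -0.08 and 0.12. Both stayed within the SD of single mice (0.18), which is a wide measure for a difference of means. The difference of the member mean also stayed within its reported 95% interval, -0.14 to 0.17. Under some alternatives it nevertheless moved by far more than its reported size of 0.01. The number of members above 0 did not hold: it was 78 with median centring, 77 in the authors' table, 20 with array weights, 6 within the third slide, and, in alternatives chosen after seeing the data, 11 without HF mouse 1, 71 without HF-Q mouse 2, 18 without HF-Q mouse 7 and 17 without HF mouse 1 and HF-Q mice 2 and 7. The median pairwise correlation of 0.85 was 0.70 in the Cy5 channel alone and 0.77 within the first slide; in alternatives chosen after seeing the data it was 0.69 without those 3 mice, 0.58 with the stem cell marker mean as a covariate and 0.69 with the enterocyte marker mean fitted out. The causes were not tested. Of 588 fold changes of 28 named members under the alternatives, 586 moved by less than the spread over mice and 103 had the other sign. The alternatives for dim probes, for background on all arrays and for saturated probes kept the same probe of each member, so those fold changes did not move at all. The SD over mice is also a loose measure: its median over the members was 0.20, against a median SE of 0.08 for a fold change. Each of these members had an SD over mice wider than its fold change. A reversed sign could thus still fall within that spread. Replicate numbers did not pair the mice: deviations of same-numbered mice had correlations from -0.35 to 0.39, above 0.1 in 5 of 11 pairs, and 1 of 11 HF-Q mice correlated best with its own number. The lowest member means of both diets nevertheless fell on low replicate numbers, a trend that was not tested. With the replicate number as a block over the 11 shared numbers, 0 members and 0 genes were called, 68 members lay above 0, and the difference of the member mean was 0.03.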
